A study of Mus musculus with 33 samples.

Results

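The RNA levels of 9 transcription factors that set microglial and macrophage identity were followed through 33 libraries of mouse microglia. The factors were taken by name, by a rule that uses no measured value, though with earlier results of these data known: Sall1, Sall3, Maf, Mef2a, Mef2c, Spi1, Runx1, Cebpa and Klf2, 9 of the 54146 genes in the count tables. All 9 were counted above the filter on low counts in each of the 12 comparisons. The study asked how microglia depend on IRF8, a lineage factor of monocytes and macrophages, in health and beside amyloid pathology, with BATF3, a leucine zipper factor known as an IRF8 partner in dendritic cells, as a further target.

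All mice were labelled C57BL/6 and female. Microglia were isolated from the brain without enzymes and sorted by flow cytometry into TRIzol. A first experiment held WT (4 libraries) and IRF8KO, a germline deletion (4), at 3 months of age. At 9 months there were WT (3), IRF8KO (3), 5xFAD (3), an amyloid model made with mutant human transgenes, whose genotype label reads 5xFAD/WT, and 5xFAD/IRF8KO (3). A further experiment at 3 months held Batf3KO mice, with the genotype Batf3-/- (3), and WT controls of their own (3). The conditional experiment at 3 months held 3 libraries with the genotype IRF8flox, called flox here, and 4 with the genotype IRF8floxCx3cr1CreERT2, called Cre here. In the Cre mice a tamoxifen-inducible recombinase is driven by the Cx3cr1 promoter, which is active in microglia and other macrophages, and the series' design names a Rosa26LSL-EYFP reporter by which YFP-positive cells were sorted. Tamoxifen was labelled for both of these groups, on 5 consecutive days from postnatal day 12. The labels do not say that each library came from a different animal, so p-values measure the spread between these samples, which may be partly technical.

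Microglia share with other macrophages a core of lineage factors. PU.1, an ETS-family protein encoded by Spi1, opens myeloid enhancers together with C/EBP factors (Cebpa) and RUNX1 (Runx1). On this base, SALL1, a zinc finger protein that in the adult haematopoietic system is found in microglia, MEF2 proteins (Mef2a, Mef2c) and MAF (Maf) are known for setting or holding the homeostatic microglial state. KLF2 is a zinc finger protein known for holding immune cells in a quiescent state.

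The genes were counted over their GENCODE exons on GRCm38. Sall1 (ENSMUSG00000031665.7) lies on the minus strand at chr8:89027235-89044162. Maf (ENSMUSG00000055435.6) is at chr8:115682942-115707794 on the minus strand, Mef2a (ENSMUSG00000030557.17) at chr7:67231163-67372858 on the minus strand, and Mef2c (ENSMUSG00000005583.16) at chr13:83504034-83667080 on the plus strand. Spi1 (ENSMUSG00000002111.8) is at chr2:91082390-91115756 on the plus strand and Runx1 (ENSMUSG00000022952.17) at chr16:92601466-92826149 on the minus strand. Cebpa (ENSMUSG00000034957.10) is at chr7:35119293-35121928 and Klf2 (ENSMUSG00000055148.7) at chr8:72319033-72321656, both on the plus strand. All are protein-coding genes. The counts ignored strand, and 4 members share exon bases with a gene on the other strand: Maf 440 bases with Gm15655, Mef2a 302 with Lysmd4, Runx1 106 with Gm26626 and Cebpa 51 with Gm45091. Reads there cannot be told apart.

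The bases upstream of Sall1, Cebpa and Klf2 are shown because these genes carried the clearest differences in the Irf8 and Batf3 comparisons. They come from RefSeq on GRCm38.p6 and are read on the gene's own strand from chr8:89044163-89044412 (Sall1, minus strand), chr7:35119043-35119292 (Cebpa, plus) and chr8:72318812-72319032 (Klf2, plus), and none reaches into the gene model used for counting. Capitals mark the letters CACCC or its reverse complement GGGTG, the box bound by KLF proteins, in Sall1 and Cebpa, and the consensus of MEF2 proteins in Klf2.
Sall1: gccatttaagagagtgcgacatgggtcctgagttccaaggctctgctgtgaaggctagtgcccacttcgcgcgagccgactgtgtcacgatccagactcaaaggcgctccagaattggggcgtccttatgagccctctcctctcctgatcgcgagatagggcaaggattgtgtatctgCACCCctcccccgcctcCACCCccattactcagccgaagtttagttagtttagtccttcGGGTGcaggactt
Cebpa: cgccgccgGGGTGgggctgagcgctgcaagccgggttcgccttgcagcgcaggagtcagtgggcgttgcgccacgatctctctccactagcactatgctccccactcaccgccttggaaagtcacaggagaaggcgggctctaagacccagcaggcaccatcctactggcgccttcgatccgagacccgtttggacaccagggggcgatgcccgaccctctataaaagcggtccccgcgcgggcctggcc
Klf2: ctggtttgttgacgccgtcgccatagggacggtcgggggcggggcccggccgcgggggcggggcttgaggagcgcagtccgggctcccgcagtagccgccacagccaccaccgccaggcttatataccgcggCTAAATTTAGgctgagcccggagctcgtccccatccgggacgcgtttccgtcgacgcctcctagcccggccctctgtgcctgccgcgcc
Of the members, 6 had 11 start sites in the RefSeq promoter table, and the 250 bases before each start were searched on both strands. Of these 11 windows, 5 lay inside the annotated gene, and the Klf2 window and a window of Runx1 reached partly into it. The MEF2 consensus was present in 2.92% of the 32851 windows in the table and, among the members, in the Klf2 window, from -118 to -109 relative to the start. CACCC was present in 52.0% of all windows and in 8 of the 11 member windows. The PU.1 core GGAAGT was present in 19.7% of all windows and in 2 member windows, of Mef2c and of a start of Sall1 that lies inside the annotated gene. The AP-1 letters TGANTCA, which BATF proteins bind with JUN, were in 6.75% of all windows and in a window of Mef2c that starts inside the gene. The composite element of ETS and IRF proteins was in 2.30% of all windows and an element of the interferon response type in 2.98%, and neither was in a member window. TGTGGT (RUNX, 14.1% of all windows) and TTGCNNAA (C/EBP, 9.56%) were in no member window either. These matches describe letters in the windows and show no binding.

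Reads counted in genes ranged from 605376 to 18357762 per library. Irf8, the targeted gene, was at 104 to 185 CPM (read counts scaled to the size and composition of each library) in IRF8KO and 253 to 333 in WT at 3 months. At 9 months it was at 15.9 to 138 in IRF8KO, 77.7 to 98.9 in 5xFAD/IRF8KO, 500.1 to 583 in WT and 522 to 662 in 5xFAD. The labels do not say which exons were deleted, so counts over the whole gene can include reads outside the deleted part. In the conditional experiment flox libraries were at 953 to 1186 CPM, Cre replicates 2, 3 and 4 at 412, 346 and 481, and the library labelled Cre replicate 1 at 1126, inside the flox range. That library goes against its label, and differences between Cre and flox are given with and without it.

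The share of counts in markers of microglia and of other cells differed between groups. The 10 microglial markers (Tmem119, P2ry12 and Cx3cr1 among them) were all detected in every group. Their summed share of gene counts was 6.20 to 6.38% in WT and 5.37 to 5.94% in 5xFAD at 9 months, 6.23 to 6.62% in the Batf3 experiment and 3.24 to 3.66% in the conditional experiment. It was 1.31 to 2.36% in WT at 3 months, 0.603 to 1.09% in IRF8KO at 3 months, 0.359 to 0.889% in IRF8KO at 9 months and 0.691 to 0.876% in 5xFAD/IRF8KO. All 13 neutrophil markers were detected in the 3 germline IRF8KO groups, at 7.63 to 16.5% of counts at 3 months, 6.47 to 9.06% at 9 months and 8.20 to 14.6% in 5xFAD/IRF8KO. WT at 3 months held 12 of the 13 (Elane at 0), at 0.858 to 5.39%. WT at 9 months held 5 of 13 with a sum of at most 0.000330%, and Ltf, Ngp, Camp, Elane, Mpo, Lcn2, Mmp8 and Ly6g at 0. In 5xFAD, S100a9, Elane, Lcn2 and Ly6g were at 0 and the sum was at most 0.000207%. In the Batf3 experiment the sum was at most 0.000516%, with Elane, Mpo, Mmp8, Ly6g and Prtn3 at 0 in both groups, and in the conditional experiment at most 0.0112%. Red blood cell genes made up 0.913 to 15.8% of counts in WT at 3 months and the germline IRF8KO groups and at most 0.187% elsewhere. Border macrophage markers summed to 0.0813 to 0.147% in the germline IRF8KO groups and at most 0.0213% elsewhere. Not all 10 of them were higher. Cbr2, Folr2 and Cd209f were at 0 in IRF8KO at 9 months, Folr2 and Cd209f in 5xFAD/IRF8KO, and Cd209f in IRF8KO at 3 months. All 10 were detected in WT of the Irf8 experiments, 5xFAD and Cre, and 8 in flox and both groups of the Batf3 experiment. Pf4 (330 ± 47.0 CPM) and Mrc1 (93.9 ± 47.9) were high in IRF8KO at 9 months, against 1.35 ± 0.333 and 3.61 ± 2.67 in WT. Monocyte markers summed to 0.593 to 1.66% in the germline IRF8KO groups, 0.0485 to 0.258% in WT at 3 months and at most 0.00162% elsewhere. Markers of other brain cells differed too. At 3 months oligodendrocyte markers summed to 0.552 to 6.32% (WT) and 0.322 to 3.71% (IRF8KO). At 9 months they summed to 0.733 to 1.12% in IRF8KO and 0.0237 to 0.0273% in WT. They were at 0.487 to 0.614% in 5xFAD/IRF8KO and 0.0204 to 0.0252% in 5xFAD. At 9 months astrocyte markers summed to 0.235 to 0.295% in IRF8KO against 0.0209 to 0.0223% in WT, and neuron markers to 0.0673 to 0.337% against at most 0.000896%. In bulk RNA, fewer cells of a type and less RNA per cell cannot be told apart, and the part of these shares in the differences below was not tested.

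Per kilobase of exon, the measure on which different genes can be compared, Spi1 had the highest level of the 9 factors in all 10 groups. Its mean was 96.3 CPM per kb in WT at 9 months and 171 in the WT of the Batf3 experiment. Sall1 ranked next in WT and 5xFAD at 9 months, in both groups of the Batf3 experiment and in Cre, with 55.8 CPM per kb in WT at 9 months and 68.1 in the WT of the Batf3 experiment. In IRF8KO at 3 months and in 5xFAD/IRF8KO, Sall1 ranked last, at 0.363 CPM per kb and at 0. The members therefore ranged from a factor that was abundant in every library to a factor that was absent from some.

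**Figure D1:**
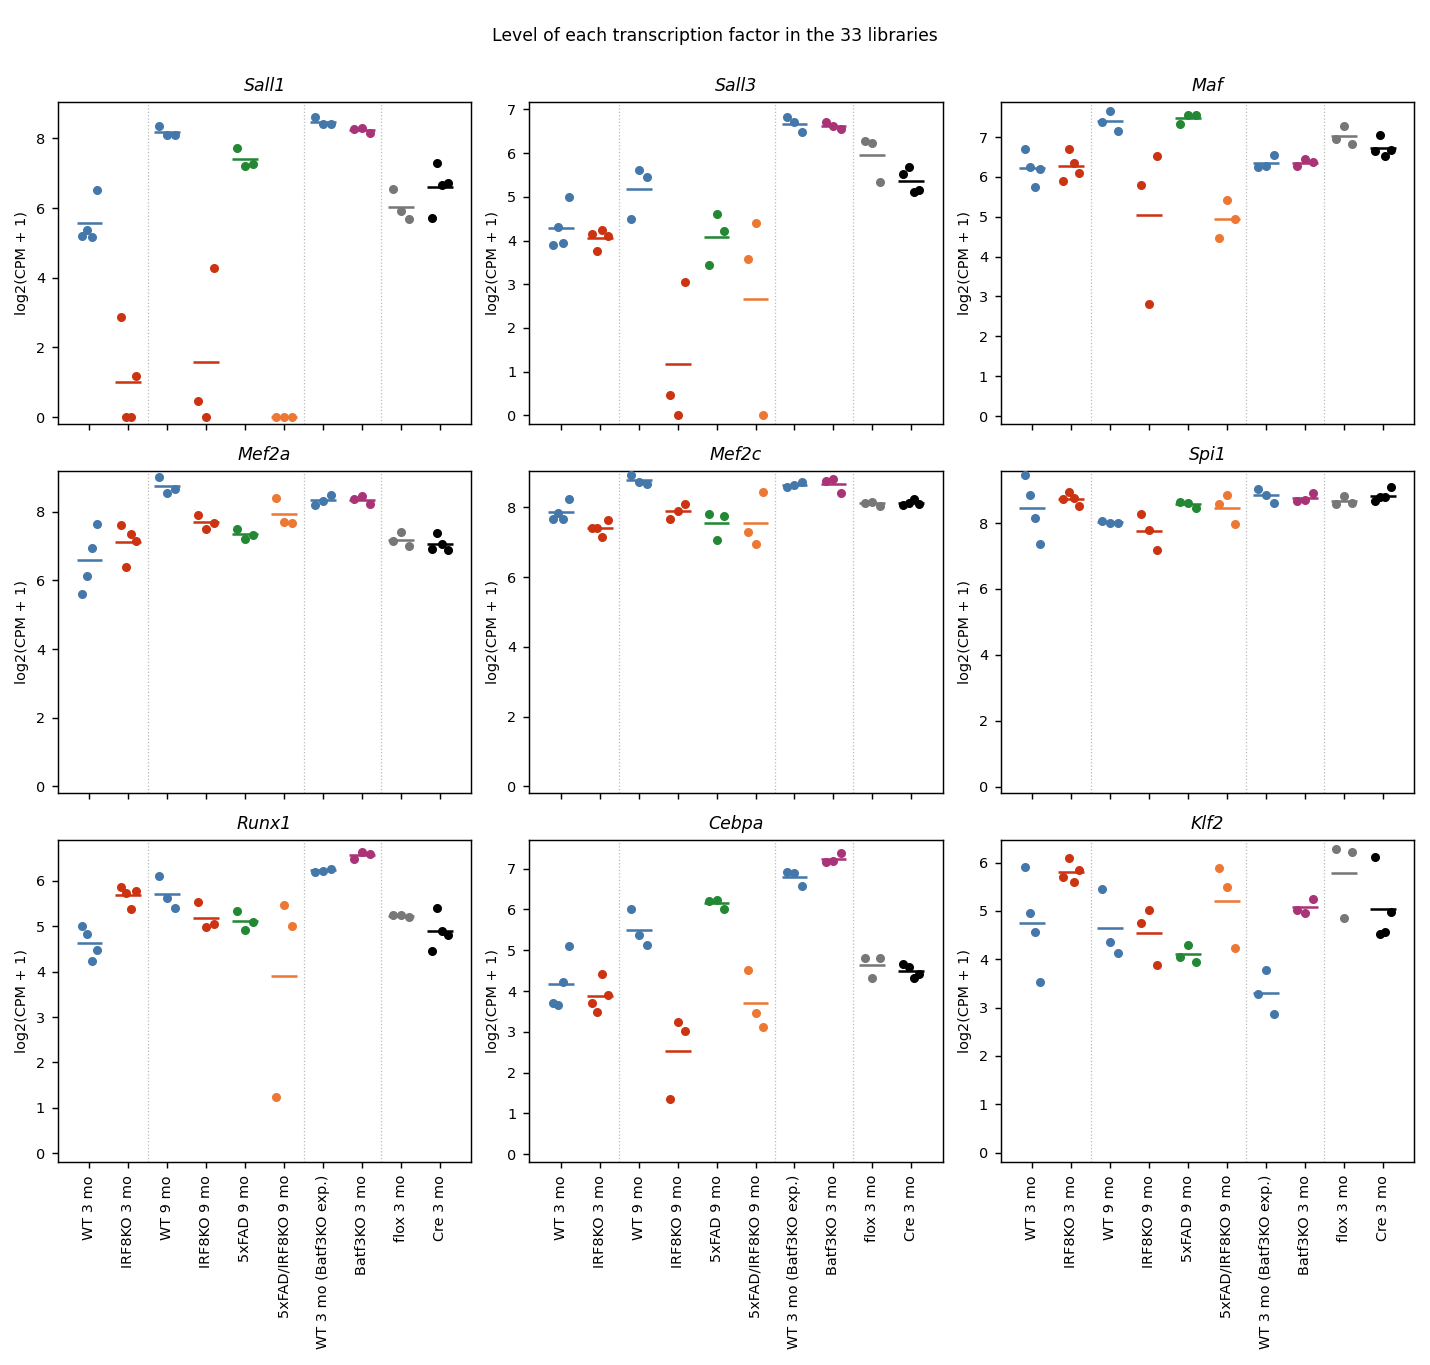
Level of each of the 9 transcription factors in the 33 libraries, as log2(CPM + 1), with 1 dot per library, a line at the group mean and dotted lines between experiments. Sall1 was at 0 in all 3 libraries of 5xFAD/IRF8KO, while Spi1 was at 143 CPM or more in every library.

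Sall1 showed the widest range. Ordered by group mean, Sall1 ran from the WT of the Batf3 experiment (359 ± 30.2 CPM, SD, n = 3) through Batf3KO, WT at 9 months, 5xFAD, Cre, flox, WT at 3 months, IRF8KO at 9 months and IRF8KO at 3 months to 5xFAD/IRF8KO (0). Of the 9 neighbouring pairs in that order, 6 overlapped between libraries. Sall3 ran from 102 ± 12.7 CPM in the WT of the Batf3 experiment to 2.55 ± 4.09 in IRF8KO at 9 months, 39.9-fold apart, and 8 of its 9 neighbouring pairs overlapped. Cebpa ran from 151 ± 13.7 CPM in Batf3KO to 5.71 ± 3.67 in IRF8KO at 9 months, 26.4-fold apart, with 5 of 9 neighbouring pairs overlapping. Klf2 ran from 59.4 ± 27.3 CPM in flox to 9.26 ± 3.26 in the WT of the Batf3 experiment, 6.41-fold apart. The other members kept within narrower limits: 5.76-fold for Maf (highest in 5xFAD, lowest in 5xFAD/IRF8KO), 3.94-fold for Mef2a and 2.60-fold for Mef2c (both highest in WT at 9 months), 3.85-fold for Runx1 (highest in Batf3KO) and 2.05-fold for Spi1. For Maf and Spi1 all 9 neighbouring pairs overlapped.

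These orders mix experiments, and the WT groups of different experiments differed among themselves. Against the WT of the Batf3 experiment, WT of the Irf8 experiment at the same age had lower Sall1 (-2.73, adjusted p 0.000691), Sall3 (-2.30, 0.00116), Mef2a (-1.47, 0.0221), Runx1 (-1.53, 0.00480) and Cebpa (-2.47, 0.00147), and higher Klf2 (1.80, 0.0393), as log2 differences. That is 6 of 9 members, where 42.8% of all genes tested passed, with 26.5% higher and 16.3% lower, and the libraries of 6 members did not overlap, beside 53.3% of all genes. The call on Mef2a was lost without replicate 2 of the WT of the Irf8 experiment (-1.25, adjusted p 0.0665), and that on Klf2 was kept only without replicate 4 of that WT, of 7 fits that left out a library (1.29 to 1.92, adjusted p 0.0528 to 0.195 in the other 6). Levels of a member are therefore read within an experiment below.

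The 12 comparisons consisted of 8 between pairs of groups and 4 differences between effects. Adjusted p-values are from edgeR's quasi-likelihood test with Benjamini-Hochberg adjustment over all genes tested, and a member is called changed below 0.05. Loss of Irf8 at 3 months was compared first: 1 of 9 members was called, Sall1, and it was lower, where 7.39% of all genes tested were called, 4.15% higher and 3.24% lower. Libraries of the groups did not overlap for 3 members, beside 19.6% of all genes. At 9 months 5 of 9 members were called, all lower, namely Sall1, Maf, Mef2a, Mef2c and Cebpa, where 28.3% of all genes were called, 19.6% higher and 8.68% lower. Libraries did not overlap for those 5 and Sall3, beside 48.8% of all genes. The median log2 difference of the 9 was -1.22, beside 0.25 over all genes. Within 5xFAD, loss of Irf8 lowered 3 of 9, Sall1, Maf and Cebpa, where 27.8% of all genes were called, 18% higher and 9.72% lower. Libraries did not overlap for those 3 and Mef2a, which was higher, beside 48.4% of all genes. The median of the 9 was -0.52 there, beside 0.24 over all genes.

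The effect of 5xFAD itself was called for 1 member, Mef2a, which fell, where 1.99% of all genes were called, 1.81% higher and 0.178% lower. Libraries did not overlap for 6 members, beside 39% of all genes: Sall1, Mef2a, Mef2c and Runx1 were lower and Spi1 and Cebpa higher in every 5xFAD library. With only those 6 libraries in the model, edgeR called 6 members, all lower: Sall1, Sall3, Mef2a, Mef2c, Runx1 and Klf2. That fit called 4546 genes in all, against 290 in the model of 12 libraries. Limma called 3821 genes, 5 of them members, with Sall1, Mef2a, Mef2c and Runx1 lower and Spi1 higher. In 5xFAD/IRF8KO against IRF8KO, 0 of 9 members and 0.164% of all genes (0.123% higher, 0.0411% lower) were called by edgeR. Libraries overlapped for all 9, where 11.1% of all genes did not. At an unadjusted p under 0.05 there were 1853 genes, 2 of them members, Sall1 and Spi1. DESeq2 called 714 genes and limma 0, no member among them. The interaction of 5xFAD with IRF8KO called 0 of 9 members and 0.438% of all genes (0.192% higher, 0.247% lower). At an unadjusted p under 0.05 there were 2146 genes, 2 of them members, Sall1 and Mef2a. DESeq2 called 898 genes there, 1 of them a member (Mef2a), and limma 11, no member among them. Loss of Batf3 raised 3 of 9 members, Klf2, Cebpa and Runx1, where 3.83% of all genes were called, 1.41% higher and 2.42% lower. Libraries did not overlap for those 3 and Sall1, beside 23.2% of all genes. Cre against flox called 0 of 9 members and 0% of 15512 genes by edgeR. At an unadjusted p under 0.05 there were 1407 genes, 1 of them a member (Sall3). DESeq2 called 164 genes and limma 257, no member among them. Libraries overlapped for all 9, where 7.74% of all genes did not. Without the library labelled Cre replicate 1, 952 genes were called, 6.24% of those tested (3.74% higher, 2.5% lower), and 2 members, Sall1 and Klf2, were among them. Comparisons of 5xFAD and of IRF8KO at 9 months share the same 3 WT libraries and are given side by side only.

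**Figure D2:**
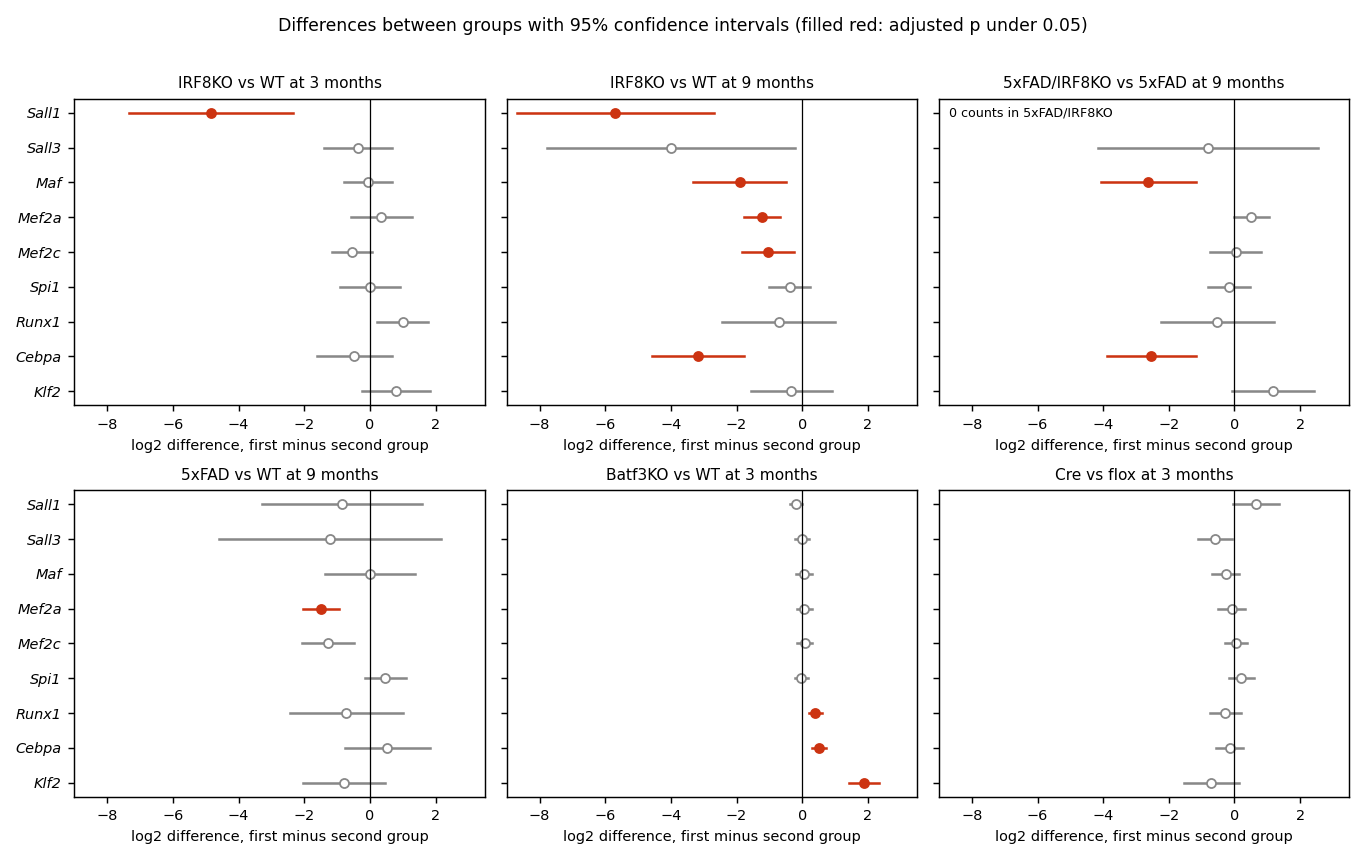
Log2 differences between groups (first minus second) for the 9 factors in 6 comparisons, with 95% confidence intervals; filled red points have an adjusted p under 0.05. In IRF8KO at 9 months 5 factors lay to the left and were called, in Batf3KO 3 lay to the right and were called, and Sall1 in 5xFAD/IRF8KO is not drawn because it had 0 counts.

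Sall1 fell in germline IRF8KO microglia at both ages, to 0 in some libraries. In WT at 3 months it was at 35.9, 40.7, 34.9 and 91.7 CPM, and in IRF8KO at 6.37, 0, 0 and 1.27 CPM, which are 34, 0, 0 and 7 reads. The highest IRF8KO library was below the lowest WT library. The log2 difference was -4.85 (SE 1.16, adjusted p 0.0268), 28.8-fold lower. This call was lost without replicate 4 of WT (-4.39, adjusted p 0.0608) or replicate 4 of IRF8KO (-4.70, adjusted p 0.0780), and the difference was -7.08 without replicate 1 of IRF8KO, the library with most of the reads.

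At 9 months Sall1 was at 330.3, 276 and 275 CPM in WT and at 0.385, 0 and 18.5 CPM in IRF8KO. Replicate 3 of IRF8KO held 150 of the 153 reads of its group, and the groups did not overlap. The log2 difference was -5.69 (SE 1.35, adjusted p 0.0109). It was called in all 6 fits that left out a library, with a difference of -10.66 without that replicate. In 5xFAD, Sall1 was at 212, 148 and 154 CPM, and in 5xFAD/IRF8KO no read was counted in any of the 3 libraries. Against 3 reads over that group, which is 0.0880 CPM, the 5xFAD mean of 171 ± 35.6 CPM was at least 1947-fold higher (adjusted p 0.00141). DESeq2 gave no adjusted p for Sall1 at 9 months.

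Sall1 was also lower in 5xFAD than in WT in all libraries, without overlap, by 0.85 on the log2 scale (95% interval -3.30 to 1.60, adjusted p 0.970 in the model of all 12 libraries). With only the 6 libraries of these groups in the model, the difference was -0.94 and was called (adjusted p 0.000388). The interaction of 5xFAD with IRF8KO was not called for Sall1 (adjusted p 0.202), although it was without the filter on low counts (adjusted p 2.95e-05) and with all libraries in a single model (adjusted p 0.0358), and against a group with 0 reads its fitted size has no meaning.

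Conditional and Batf3 deletion did not move Sall1 in that way. In Batf3KO it was at 309, 312 and 286 CPM against 393, 343 and 339 in the WT of that experiment. The groups did not overlap, but the difference of -0.19 was not called (95% interval -0.36 to -0.02, adjusted p 0.228). In flox it was at 92.0, 58.9 and 50.7 CPM and in Cre at 52.1, 156, 101 and 105 CPM, with the lowest value in the library labelled Cre replicate 1. With all libraries the difference was 0.67 (95% interval -0.04 to 1.37, adjusted p 0.591). Without Cre replicate 1, Sall1 rose by 0.90 in Cre (SE 0.221, adjusted p 0.0152), the direction opposite to the germline knockout. The flox genotype names no recombinase. Between Cre and flox, the deletion therefore cannot be told apart from the recombinase itself or from a difference in the sort by YFP. The effect of Cre minus the effect of IRF8KO at 3 months was 5.65 (SE 1.16, adjusted p 0.00806), where 7.04% of all genes were called, 4.37% higher and 2.68% lower. It was called in all 15 fits that left out a library, and was 7.93 without replicate 1 of IRF8KO and 5.88 without Cre replicate 1 (adjusted p 0.00611). This contrast crosses experiments whose controls differed. Microglial markers summed to 1.31 to 2.36% in WT and 3.37 to 3.53% in flox, and neutrophil markers to 0.858 to 5.39% and 0.00184 to 0.0112%. Cre libraries also kept Irf8 reads, as given above. The kind of deletion cannot be told apart from what else differed between the experiments. The effect of IRF8KO minus that of Batf3KO was -4.61 (SE 1.13, adjusted p 0.0391), where 3.22% of all genes were called, 2.05% higher and 1.17% lower. That call was kept in 7 of 14 fits that left out a library. It was lost without replicate 4 of IRF8KO (-4.48, adjusted p 0.0686) or any library of the Batf3 experiment (-4.55 to -4.66, adjusted p 0.0941 to 0.120). The difference was -6.94 without replicate 1 of IRF8KO. This contrast crosses experiments too, and the deleted gene cannot be told apart from what else differed between them. Batf3 itself was low in IRF8KO, as given above.

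Across libraries, Sall1 and the summed share of microglial markers were low together in the germline IRF8KO groups. There the share of the 10 markers was 0.359 to 1.09% in all 10 libraries and Sall1 at most 18.5 CPM. Within WT at 3 months the order differed: replicate 4 had the lowest marker share (1.31%) and the highest Sall1 (91.7 CPM). Spi1 showed no such relation to the marker share between groups, with 143 to 488 CPM in the germline IRF8KO libraries and 255 to 266 in WT at 9 months. Of the 10 markers, 7 are also in the list of SALL1-linked genes used below and the other 3 in the list of PU.1 targets.

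**Figure D3:**
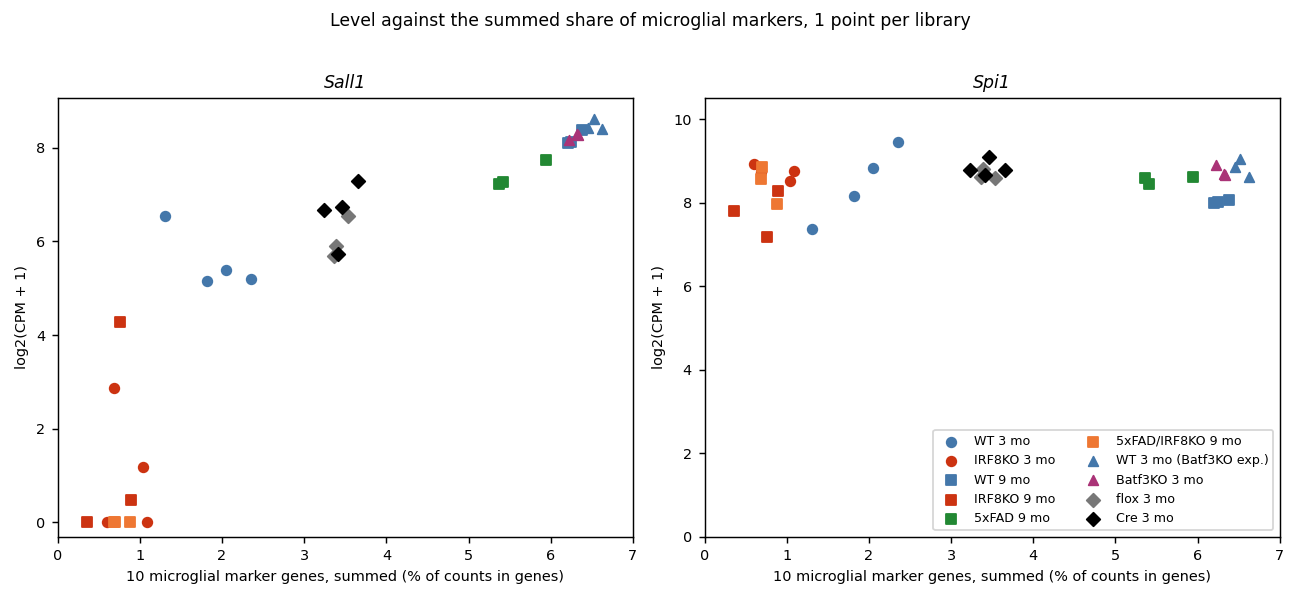
Level of Sall1 (left) and Spi1 (right) as log2(CPM + 1) against the summed share of 10 microglial markers in percent of counts in genes, with 1 point per library and symbols by group. All 10 germline IRF8KO libraries sit below 1.1% on the horizontal axis, where Sall1 was at most 18.5 CPM and Spi1 was between 143 and 488 CPM.

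Sall3 (ENSMUSG00000024565.8, on chromosome 18), the relative of Sall1, was measured at lower levels and with a wide spread. At 3 months it was at 13.8, 18.7, 14.4 and 30.7 CPM in WT and at 16.7, 12.6, 17.8 and 16.2 in IRF8KO, overlapping groups with a difference of -0.37 (95% interval -1.40 to 0.67, adjusted p 0.699). At 9 months it was at 21.4, 48.0 and 42.5 CPM in WT and at 0.385, 0 and 7.27 in IRF8KO. These groups did not overlap, and the difference of -4.01 (95% interval -7.78 to -0.23) was not called (adjusted p 0.104). It was called by DESeq2 (-4.02, adjusted p 0.0305), without the filter on low counts (-4.05, adjusted p 0.00650), with all libraries in a single model (-3.83, adjusted p 0.00280) and without replicate 3 of IRF8KO (-7.72, adjusted p 0.0236). In 5xFAD/IRF8KO it was at 10.9, 20 and 0 CPM and in 5xFAD at 9.77, 23.2 and 17.7, which overlapped. Sall3 was at 113, 104 and 88.1 CPM in the WT of the Batf3 experiment and at 104, 96.8 and 92.2 in Batf3KO, a difference of 0.00 (95% interval -0.21 to 0.22). In Cre it was at 33.8 to 50.7 CPM and in flox at 39.3 to 76.7, a difference of -0.60 that was not called with (adjusted p 0.453) or without (-0.63, adjusted p 0.147) Cre replicate 1.

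Maf, a basic leucine zipper factor of tissue macrophages, was called lower without Irf8 at 9 months, with and without 5xFAD, and was not called at 3 months. At 3 months it was at 104, 75.3, 52.5 and 72.6 CPM in WT and at 58.9, 104, 81.0 and 67.0 in IRF8KO (difference -0.04, 95% interval -0.77 to 0.69). At 9 months WT was at 167, 199 and 141 CPM and IRF8KO at 54.8, 5.97 and 90.8. The groups did not overlap, and the log2 difference was -1.91 (SE 0.651, adjusted p 0.0449). That call was lost without replicate 1 (-2.03, adjusted p 0.0923), 2 (-1.80, 0.117) or 3 (-2.11, 0.0729) of WT, without replicate 1 of IRF8KO (-2.07, 0.0755), and with only the 6 libraries compared in the model (-1.80, 0.140). Within 5xFAD Maf was at 159, 186 and 188 CPM in 5xFAD and at 21.1, 41.7 and 29.8 in 5xFAD/IRF8KO, a log2 difference of -2.62 (SE 0.667, adjusted p 0.0119) that was called in all 6 fits that left out a library. The effect of IRF8KO at 9 months minus that at 3 months was -1.76 for Maf and was not called by edgeR (adjusted p 0.119). It was called by limma (-2.44, adjusted p 0.0226), without the filter on low counts (-1.79, 0.0353), with all libraries in a single model (-1.78, 0.0214) and without IRF8KO replicate 3 at 9 months (-2.47, 0.0337). Maf did not differ by the test in Batf3KO (0.05, 95% interval -0.20 to 0.29) or in Cre (-0.26, 95% interval -0.67 to 0.15), where it was -0.21 without replicate 1 (adjusted p 0.691).

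Mef2a and Mef2c encode MADS-box factors that act at enhancers of microglia, where Mef2c is known for restraining the inflammatory response. At 9 months Mef2a was at 517, 371 and 408 CPM in WT, 239, 181 and 202 in IRF8KO, 181, 147 and 159 in 5xFAD, and 335, 207 and 205 in 5xFAD/IRF8KO. The lowest WT library was above every library of the other 3 groups. Mef2a fell by 1.22 in IRF8KO (SE 0.250, adjusted p 0.00349), a call kept in all 6 fits that left out a library. It fell by 1.49 in 5xFAD (SE 0.252, adjusted p 0.0157). The latter call was lost without replicate 1 (-1.38, adjusted p 0.148), 2 (-1.58, 0.0605) or 3 (-1.55, 0.108) of WT and without replicate 2 (-1.41, 0.123) or 3 (-1.50, 0.115) of 5xFAD. In 5xFAD/IRF8KO against 5xFAD, Mef2a was higher in every library by 0.51 (95% interval -0.03 to 1.05, adjusted p 0.147).

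The interaction, which asks whether the effect of IRF8KO differed with and without 5xFAD, was 1.73 for Mef2a (SE 0.352, adjusted p 0.0612). It was called by DESeq2 (1.74, adjusted p 6.79e-05), without the filter on low counts (1.80, adjusted p 0.0405), with all libraries in a single model (1.68, adjusted p 0.0322), without replicate 1 of IRF8KO (1.87, adjusted p 0.0488) or without replicate 3 of 5xFAD/IRF8KO (1.85, adjusted p 0.0384). Mef2c was also highest in WT and lowest on average in 5xFAD. It was at 491, 420 and 410 CPM in WT, 204, 238 and 272 in IRF8KO, 222, 133 and 215 in 5xFAD, and 155, 123 and 347 in 5xFAD/IRF8KO. It fell by 1.05 in IRF8KO (SE 0.362, adjusted p 0.0474). That call was lost without replicate 1 (-1.08, adjusted p 0.112), 2 (-1.10, 0.0957) or 3 (-1.19, 0.0734) of WT or without replicate 1 (-1.06, 0.0792) or 2 (-1.17, 0.0666) of IRF8KO. It was also lost with limma (-0.98, adjusted p 0.0636) and with size factors of the DESeq2 type (-1.04, adjusted p 0.0547). In 5xFAD the difference of Mef2c was -1.29 with no overlap (95% interval -2.08 to -0.50, adjusted p 0.107), and DESeq2 called it (-1.37, adjusted p 0.0109).

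At 3 months the MEF2 genes were not called in any genotype. Mef2a ranged from 47.5 to 198 CPM in WT and from 83.5 to 195 in IRF8KO, a difference of 0.35 (95% interval -0.58 to 1.28). Mef2c was at 204, 229, 204 and 303 CPM in WT and at 169, 170, 141 and 198 in IRF8KO. These groups did not overlap, with a difference of -0.54 (95% interval -1.16 to 0.07, adjusted p 0.278). In Batf3KO the differences were 0.07 for both genes, with 95% intervals of -0.15 to 0.29 for Mef2a and -0.16 to 0.30 for Mef2c. In Cre they were -0.09 for Mef2a (-0.49 to 0.31) and 0.04 for Mef2c (-0.29 to 0.37). Without Cre replicate 1 they were -0.02 and 0.08.

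Spi1, which encodes the ETS factor PU.1 at the top of the myeloid hierarchy, was called in none of the 12 comparisons by edgeR. At 9 months it was at 266, 257 and 255 CPM in WT, 308, 221 and 143 in IRF8KO, 395, 388 and 350.2 in 5xFAD and 379, 461 and 248 in 5xFAD/IRF8KO. The IRF8KO libraries lay on both sides of WT, with a difference of -0.38 (95% interval -1.01 to 0.25). All 3 libraries of 5xFAD lay above WT, with a difference of 0.47 (95% interval -0.16 to 1.10, adjusted p 0.702). Limma called it (0.49, adjusted p 0.00526). At 3 months Spi1 was at 705, 457, 284 and 164 CPM in WT, a 4-library spread wider than that of any other group, and at 426, 488, 431 and 366 in IRF8KO. The difference was 0.00 with a 95% interval of -0.90 to 0.91, so the interval holds changes of nearly that size either way. In Batf3KO (408, 415 and 481 CPM, against 528, 461 and 391 in WT) the interval was tighter, -0.22 to 0.18 around -0.02. In Cre (407, 439, 443 and 542 CPM, against 383, 447 and 389 in flox) the difference was 0.21 (95% interval -0.17 to 0.58), and 0.28 without replicate 1 (adjusted p 0.516).

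Runx1, a Runt-domain factor needed for the origin of blood and microglia, was higher in every IRF8KO library than in every WT library at 3 months. WT was at 30.9, 27.5, 17.8 and 21.2 CPM and IRF8KO at 57.0, 52.2, 40.5 and 54.1, a difference of 1.00 that was not called (95% interval 0.21 to 1.78, adjusted p 0.112). At 9 months it was at 67.8, 48.4 and 41.5 CPM in WT and at 45.2, 30.6 and 32.1 in IRF8KO, overlapping groups with a difference of -0.72 (95% interval -2.43 to 1.00, adjusted p 0.544). The effect of IRF8KO at 9 months minus that at 3 months was -1.64 (SE 0.535, adjusted p 0.0344), where 24% of all genes were called, 18% higher and 5.92% lower. The call was kept in 5 of 14 fits that left out a library. It was lost (-1.75 to -1.39, adjusted p 0.0512 to 0.143) when the library dropped was replicate 3 of WT or 1, 2 or 4 of IRF8KO among the younger mice, or any of WT or 2 or 3 of IRF8KO among the older. It was also lost with size factors of the DESeq2 type (-1.46, adjusted p 0.0517), a scaling that moved the median of all genes by 0.16, without the filter on low counts (-1.67, 0.162) and with all libraries in a single model (-1.63, 0.0688). The ages differed in marker shares and depth too, so that age cannot be told apart from what else differed between these sets of libraries. In 5xFAD/IRF8KO Runx1 was at 1.36, 43.0 and 31.3 CPM, so that replicate 1 stood apart from the others.

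Batf3KO raised Runx1 by a small amount. It was at 72.6, 73.4 and 75.9 CPM in WT and at 88.3, 97.6 and 95.1 in Batf3KO, without overlap, and rose by 0.40 (SE 0.0919, adjusted p 0.0302). This call was kept in 1 of 6 fits that left out a library. It was lost without replicate 1 (0.36, adjusted p 0.0959) or 2 (0.38, 0.134) of WT or replicate 1 (0.43, 0.0866), 2 (0.36, 0.142) or 3 (0.40, 0.0673) of Batf3KO. In Cre, Runx1 was at 20.9, 41.2, 28.9 and 27.0 CPM and in flox at 36.9, 37.2 and 35.9, a difference of -0.28 (95% interval -0.76 to 0.20), and -0.13 without replicate 1.

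Cebpa, whose product drives commitment of progenitors to the myeloid lineage, fell without Irf8 at 9 months, both in WT and in 5xFAD mice. WT was at 63.2, 40.4 and 34.2 CPM and IRF8KO at 1.54, 8.45 and 7.14, a log2 difference of -3.17 (SE 0.644, adjusted p 0.00340), 8.97-fold lower. 5xFAD was at 72.8, 74.6 and 63.6 CPM and 5xFAD/IRF8KO at 21.7, 10.1 and 7.68, a log2 difference of -2.53 (SE 0.622, adjusted p 0.0100), 5.78-fold lower. The libraries did not overlap in either comparison, and both calls were kept in all 6 fits that left out a library and in all 7 other settings. At 3 months Cebpa was at 12.1, 11.7, 17.6 and 33.3 CPM in WT and 12, 10.2, 20.4 and 14.0 in IRF8KO, overlapping groups with a difference of -0.47 (95% interval -1.62 to 0.67). In Cre it was at 24.2, 23.1, 18.8 and 20.5 CPM and in flox at 26.9, 19.1 and 27.0, a difference of -0.14 (95% interval -0.55 to 0.27), and -0.17 without Cre replicate 1 (adjusted p 0.804). The effect of IRF8KO on Cebpa at 9 months minus that at 3 months was -2.61 (SE 0.874, adjusted p 0.0385). Of all genes, 24% were called there, 18% higher and 5.92% lower. The call on Cebpa was kept in 4 of 14 fits that left out a library. Those dropped replicate 4 of WT or 2 of IRF8KO among the younger mice, or 2 or 3 of IRF8KO among the older. Without any of the other 10 the difference was -2.77 to -2.16 (adjusted p 0.0501 to 0.146). The call was lost with size factors of the DESeq2 type (-2.41, adjusted p 0.0541), with limma (-2.95, 0.0512) and without the filter on low counts (-2.64, 0.0696). As for Runx1, age cannot be told apart from what else differed between these sets of libraries. The neutrophil marker share in IRF8KO at 9 months, 6.47 to 9.06%, stood beside lower Cebpa than in WT, where that share was at most 0.000330%, and its part in the difference was not tested.

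Loss of Batf3 left the levels of 6 members close to WT and raised 3. Klf2 rose most. It was at 8.78, 12.7 and 6.27 CPM in WT and at 31.2, 30.2 and 37.2 in Batf3KO, and the lowest Batf3KO library was above the highest WT library. The log2 difference was 1.88 (SE 0.209, adjusted p 0.000179). It was called in all 6 fits that left out a library, with values of 1.69 or more. The call was lost when all 33 libraries were put into a single model (1.83, adjusted p 0.490). That model called 10 genes in all for Batf3KO, where the model of its own groups called 503. Cebpa was at 120, 118 and 94.3 CPM in WT and at 142, 144 and 167 in Batf3KO, and rose by 0.51 (SE 0.0970, adjusted p 0.0115), also called in all 6 of those fits. The summed share of 10 immediate early genes, which respond to handling of cells, was 0.0405 to 0.0516% in WT and 0.0448 to 0.0481% in Batf3KO. Within this sum, Zfp36 (103 to 116 against 133 to 144 CPM) and Egr1 (3.87 to 6.64 against 6.72 to 12.4) were higher in Batf3KO without overlap. Fosb was lower without overlap, with 6 reads in WT and 1 in Batf3KO, and the other genes overlapped, among them Junb (177 to 286 against 182 to 196). Border macrophage markers summed to at most 0.00138% in WT and 0.000927% in Batf3KO. The part of either set of genes in the Klf2 and Cebpa rises was not tested.

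Klf2 had a wide spread within groups. At 3 months it was at 59.1, 30.1, 22.7 and 10.6 CPM in WT and at 50.8, 67.6, 47.5 and 56.3 in IRF8KO (difference 0.80, 95% interval -0.24 to 1.84, adjusted p 0.348). At 9 months it was at 42.6, 19.5 and 16.6 CPM in WT, 25.8, 31.5 and 13.7 in IRF8KO, 15.6, 18.7 and 14.4 in 5xFAD and 57.9, 43.8 and 17.9 in 5xFAD/IRF8KO. In the model of 12 libraries edgeR called no difference among these, and the largest, 5xFAD/IRF8KO against 5xFAD, was 1.18 (95% interval -0.07 to 2.43, adjusted p 0.150). With only the 6 libraries compared in the model, Klf2 was called lower in 5xFAD than in WT (-0.93, adjusted p 0.0119). The immediate early share was 0.131 to 0.282% in WT at 9 months and 0.0527 to 0.0637% in 5xFAD, and its part in Klf2 was not tested. In the conditional experiment Klf2 was at 77.2, 27.9 and 73.0 CPM in flox and at 68.5, 22.1, 22.5 and 30.5 in Cre, with the highest Cre value in the library labelled replicate 1. The difference of -0.71 (95% interval -1.55 to 0.13) was not called (adjusted p 0.659). Without that library, Klf2 was lower in Cre with a log2 difference of -1.19 (SE 0.274, adjusted p 0.00899). The same library had a border macrophage share of 0.0208%, beside 0.0116 to 0.0161% in flox and 0.000657 to 0.00114% in Cre replicates 2 to 4, and an immediate early share of 0.0391%, beside 0.0269 to 0.0388% in flox and 0.0209 to 0.0245% in those replicates. The part of either in the Klf2 and Sall1 differences was not tested. As given for Sall1, the deletion cannot be told apart from the recombinase or the sort in these differences.

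**Figure D4:**
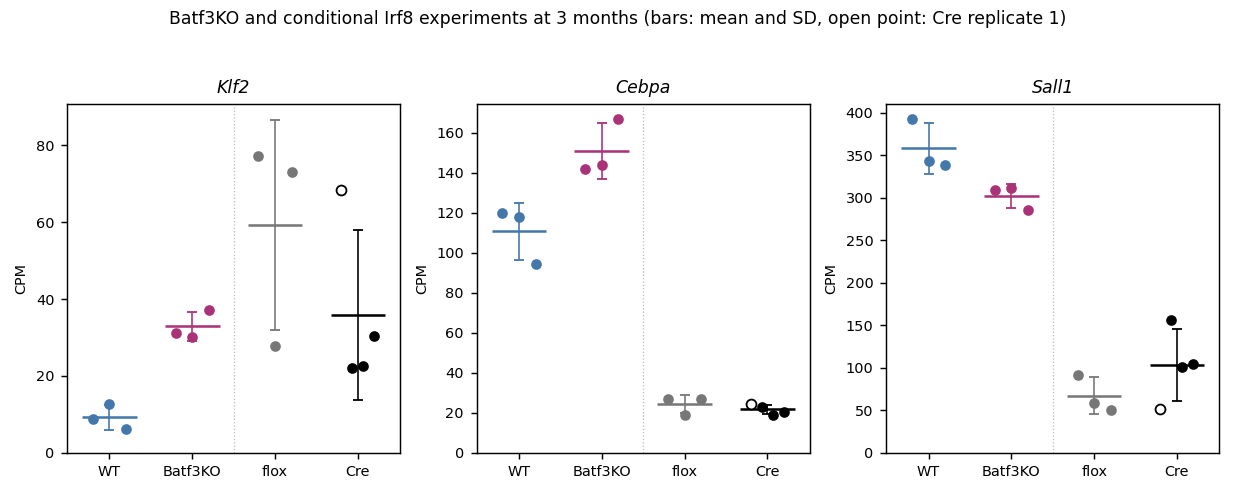
Levels of Klf2, Cebpa and Sall1 in CPM in the Batf3 experiment and the conditional Irf8 experiment at 3 months, with 1 point per library and bars for the mean and SD; the open point is the library labelled Cre replicate 1. Klf2 was at 30.2 to 37.2 CPM in Batf3KO against 6.27 to 12.7 in its WT, and the open point lies with flox for Klf2 (68.5 CPM) and Sall1 (52.1 CPM).

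Genes linked to SALL1 were called lower at both ages in the germline knockout, and their link to the fall of Sall1 was not tested. Of all genes, 3.24% were lower and 4.15% higher in IRF8KO at 3 months. A list of 16 genes of the homeostatic programme held 7 lower and 0 higher there (median -1.37, beside -0.02 over all genes). Among them were Slc2a5, a fructose transporter (32.6 ± 14.2 against 285 ± 82.1 CPM), and P2ry12, a purinergic receptor of resting microglia (374 ± 47.3 against 2900 ± 1047 CPM). Without replicate 1 of IRF8KO, 4 were called lower. At 9 months 13 of 16 were lower and 0 higher (median -2.95, beside 0.25), where 8.68% of all genes were lower and 19.6% higher. With a library left out, 13 to 15 were lower. Slc2a5 went from 553 ± 195 to 11.3 ± 11.7 CPM (adjusted p 0.0136) and Rtn4rl1, a Nogo receptor relative, from 320.5 ± 32.8 to 7.41 ± 1.74 (adjusted p 1.08e-06). Within 5xFAD, 15 of 16 were lower and 0 higher (median -3.09, beside 0.24), where 9.72% of all genes were lower and 18% higher. Among the 15 was Crybb1, a crystallin (5.16 ± 5.99 against 166 ± 28.3 CPM). In Batf3KO 3 were lower and 0 higher, including Gpr84 (-0.52) and Rtn4rl1 (-0.42), and the median was -0.02. Of all genes, 2.42% were lower and 1.41% higher in Batf3KO. Left-out libraries gave 0 lower without Batf3KO replicate 1 and 1 without WT replicate 2 or Batf3KO replicate 2. In Cre 0 were called with all libraries. Without replicate 1, 3 were higher and 3 lower, where 3.74% of all genes were higher and 2.5% lower. The effect of Cre minus that of IRF8KO was higher for 8 of 16 and lower for 0, where 4.37% of all genes were higher and 2.68% lower. It was higher for 5 without flox replicate 1 or 3, and higher for 8 and lower for 1 without Cre replicate 1. This contrast crosses experiments, with the limit given above for Sall1. Of the 16 genes, 7 are also among the microglial markers, whose summed share differed between groups. The part of cell content in the differences of this list was not tested.

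Targets of PU.1 moved both ways while Spi1 was not called. Of 16 such genes, 4 were higher and 4 lower in IRF8KO at 3 months, where 4.15% of all genes were higher and 3.24% lower. Cybb, the large subunit of the phagocyte oxidase, rose from 57.7 ± 32.6 to 831 ± 236 CPM, and Csf3r, the G-CSF receptor, from 173 ± 26.2 to 623 ± 70.3. Aif1, which encodes IBA1, fell from 949 ± 442 to 38.9 ± 17.2 CPM and Ctss, cathepsin S, from 8580 ± 4594 to 2238 ± 436. The 4 lower calls came down to 1 without any single library of IRF8KO and to 2 without WT replicate 1 or 2. At 9 months 2 were higher and 8 lower, where 19.6% of all genes were higher and 8.68% lower. Within 5xFAD 3 were higher and 10 lower, where 18% of all genes were higher and 9.72% lower. Csf1r, the receptor for the growth factor on which microglia depend, fell by 2.87 at 9 months (adjusted p 0.000258). Cd68, a lysosomal membrane protein, fell by 3.15 within 5xFAD (adjusted p 1.59e-05) and Ptprc, the pan-leukocyte antigen CD45, rose by 2.24 (adjusted p 0.00186). Cybb and Csf3r are also expressed by neutrophils, whose marker shares in these groups are given above, and the part of those cells in the rises was not tested. In 5xFAD against WT 5 targets were higher and 0 lower, where 1.81% of all genes were higher, among them Tyrobp (1274 ± 238 to 5736 ± 1440 CPM) and Fcer1g (798 ± 134 to 2702 ± 422), adaptors of activating receptors. That count was 3 without 5xFAD replicate 1, 1 without WT replicate 2 and 0 without any other library.

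**Figure D5:**
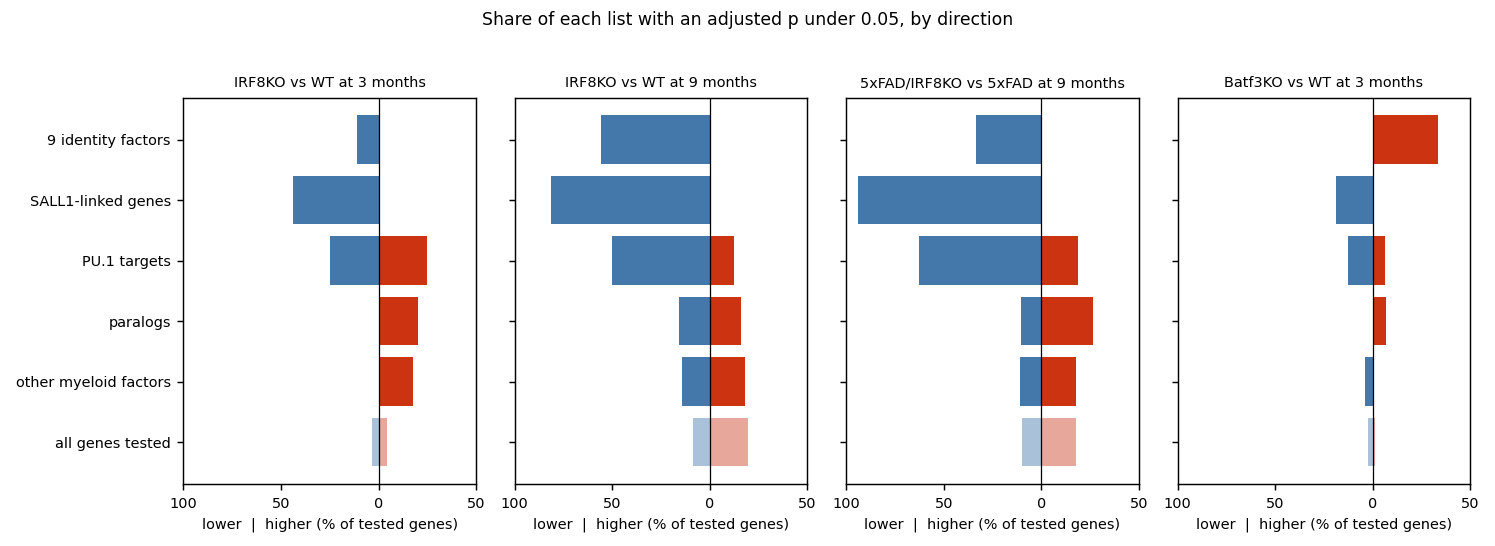
Share of tested genes with an adjusted p under 0.05, lower to the left and higher to the right in percent, for the 9 factors, 4 related lists and all genes tested (pale bars) in 4 comparisons. SALL1-linked genes were called lower for 13 of 16 genes in IRF8KO at 9 months and 15 of 16 within 5xFAD, and in Batf3KO the 9 factors were called higher for 3 of 9.

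Relatives of the members gave a mixed picture. Of 24 relatives, 20 were tested at 3 months, and 4 were higher and 0 lower in IRF8KO, among them Cebpe, a C/EBP factor of granulocyte maturation (11.8 ± 11.3 to 84.6 ± 28.7 CPM), Klf10 (13.7 ± 2.04 to 55.0 ± 11.6) and Mafg (61.5 ± 12.1 to 144 ± 30.1). The count was 2 without WT replicate 2 or 3 or IRF8KO replicate 4 and 1 without IRF8KO replicate 1, 2 or 3. At 3 months 4.15% of all genes were higher. At 9 months 19 were tested, with 3 higher and 3 lower, where 19.6% of all genes were higher and 8.68% lower, so that the higher share did not exceed that of all genes. Klf3, a repressor of the KLF family, was lower by a log2 difference of -1.19 (adjusted p 0.0120). Cebpe was at 0 counts in all WT libraries and at 46.9 ± 14.6 CPM in IRF8KO. The 3 higher calls came down to 1 without any single WT library. Within 5xFAD 5 of 19 were higher and 2 lower, where 18% of all genes were higher and 9.72% lower, and the 5 came down to 3 without 5xFAD replicate 1 and to 2 without 5xFAD replicate 2 or 3 or 5xFAD/IRF8KO replicate 2. In Batf3KO 1 of 15 tested was higher and 0 lower, where 1.41% of all genes were higher and 2.42% lower. That 1 was Cebpb (53.9 ± 15.9 to 81.9 ± 12.2 CPM), a call kept only without WT replicate 1.

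Of 30 other myeloid transcription factors, 28 were tested in IRF8KO at both ages. At 3 months 5 were higher and 0 lower, including Gfi1, a transcriptional repressor needed for neutrophil differentiation (1.12 ± 1.86 to 26.6 ± 19.6 CPM), Bhlhe40 (10.4 ± 9.64 to 70.2 ± 7.91) and Bhlhe41 (9.31 ± 6.72 to 52.5 ± 15.2). That count was 3 without WT replicate 1 or 3, 2 without IRF8KO replicate 1, 2 or 4 and 1 without IRF8KO replicate 3. Of all genes, 4.15% were higher and 3.24% lower at 3 months, and 19.6% and 8.68% at 9 months. At 9 months 5 of the 28 were higher, a share near that of all genes, and 4 lower, and the 5 came down to 3 without WT replicate 1 or 3. Irf5, a relative of IRF8, Nfkb1, an NF-kappaB subunit, and Etv5, an ETS factor, fell, with log2 differences of -3.46 (adjusted p 0.000781), -2.64 (0.00198) and -2.40 (0.00152). Within 5xFAD 5 of 28 were higher and 3 lower, beside 18% and 9.72% of all genes, with log2 differences of -3.03 for Irf5 (adjusted p 0.00176) and -3.74 for Lyl1 (adjusted p 0.00610). In Batf3KO Etv5 alone was called, lower by 0.38 (adjusted p 0.0281), where 2.42% of all genes were lower and 1.41% higher. The call on Etv5 was kept in 1 of 6 fits, that without WT replicate 2.

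For members whose group means spanned over 4-fold, the genes with the most similar profile over the 10 groups were found among 11935 genes by the root mean square difference of centred log2(CPM + 1) group means. Nearest to Sall1 were Chst7 (0.71), Kcnd1 (0.83) and Slc2a5 (0.90). Clcf1 (0.27), Lrp1 (0.31) and Rapgef1 (0.36) were nearest to Sall3, Dimt1 (0.15), Rars2 (0.32) and Pcnx4 (0.32) to Maf, Dtx2 (0.25), Adam15 (0.29) and Slc35f6 (0.31) to Cebpa, and Naa16 (0.45), Brd3 (0.46) and Npepps (0.48) to Klf2. The nearest gene to Sall1 was farther from it than the nearest gene to each of those 4 other members.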

How the data were processed

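RNA-seq of sorted mouse microglia was analysed in 33 libraries, amplified with SMART-Seq v4 for 15 cycles and without molecular identifiers, per the labels' protocols. The deposited values are raw read counts per gene in the layout of STAR's gene count output, with 54146 genes and 4 summary lines that were left out. The submitters' processing notes name bcl2fastq, STAR 2.5.2b, Picard 2.17.11, Subread, featureCounts and mm10, with no role or order. The column that ignores strand was used.

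Counts were normalised with TMM, filtered with filterByExpr and tested with edgeR 4.0.16 (quasi-likelihood, Benjamini-Hochberg adjustment, threshold 0.05) in R 4.3.3. At 9 months all 12 libraries shared a single model, and other comparisons used their own groups. Printed levels are CPM with TMM factors over the 33 libraries. Intervals are 95% and come from the model. Alternatives used limma 3.58.1 (voom with quality weights), DESeq2 1.42.0, DESeq2-type size factors, no filter, other sets of libraries, a replicate block and each library left out. The steps were tested on simulated data. Gene identifiers were matched to GENCODE M21 ignoring version (54079 of 54146).

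The members and lists were chosen with earlier results of these data known. Genes named from a list were the called genes of largest change in each direction, up to 3 of the relatives and other factors and 2 of the SALL1-linked genes and PU.1 targets, among those at 5 CPM or more in the higher group and without overlap. Not all are printed, and some are not reported here. Without molecular identifiers, counting error covers only part of the error of low values. Depth was 605376 to 18357762 reads in genes.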

Additional observations from a re-analysis of the deposited data

Results flagged for a closer look

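Sall1 in WT at 3 months had a library that stood apart: replicate 4 was at 91.7 CPM and the other 3 at 34.9 to 40.7 CPM. Of the 27 sets of 4 libraries examined (9 members in 3 groups), this was the only such case, and chance alone marks about 1 group in 20. The same library had the lowest microglial marker share of its group, 1.31%, and the lowest Spi1, 164 CPM.

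By edgeR's interaction test the effect of IRF8KO differed between the ages for Runx1 and Cebpa, where 24% of all genes were called. As the log2 effect at 9 months minus that at 3 months, it was -1.64 for Runx1 (adjusted p 0.0344) and -2.61 for Cebpa (adjusted p 0.0385). The calls were kept in 5 (Runx1) and 4 (Cebpa) of 14 fits that left out a library. Age cannot be told apart from what else differed between these sets of libraries. For Sall1 the effect of Cre minus that of IRF8KO at 3 months was 5.65 (adjusted p 0.00806), where 7.04% of all genes were called. The effect of IRF8KO minus that of Batf3KO was -4.61 (adjusted p 0.0391), where 3.22% were called, and was kept in 7 of 14 such fits. Both contrasts cross experiments, and the genotype cannot be told apart from what else differed between those.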

How the results depend on the processing

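Of 1630 recomputed member differences, 1514 kept their side of the threshold, 70 lost a call and 46 gained a call. Among differences called in the main or the recomputed fit, 0 changed direction. Changes of direction among differences called in neither fit were not counted. The number of members called moved as follows, with the number of all genes called in the same fit in brackets. For 5xFAD against WT it was 1 (290), but 2 with DESeq2 (900) and 5 with limma (3821). It was 2 with all libraries in a single model (806) and 6 with only the groups compared (4546). For 5xFAD/IRF8KO against IRF8KO it was 0 (24), and 1 without the filter on low counts (320) or with all libraries (1452). For the interaction it was 0 (64), but 2 without the filter (238), 1 with DESeq2 (898) and 2 with all libraries (1082). For Batf3KO it was 3 (503), but 0 with all libraries (10). For Cre against flox it was 0 (0), and 1 without the filter (618). For the effect at 9 months minus that at 3 months it was 2 (3717). It was 0 with size factors of the DESeq2 type (3864), 4 with limma (3973) and 4 with all libraries (6342). For Cre minus IRF8KO it was 1 (1223), and 2 with DESeq2 (2122). The cause of these changes was not tested.

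With each library left out in turn, the number of members called was 0 to 1 for IRF8KO at 3 months, 3 to 6 for IRF8KO at 9 months, 0 to 1 for 5xFAD, 3 for 5xFAD/IRF8KO against 5xFAD, 0 for 5xFAD/IRF8KO against IRF8KO, 0 to 1 for the interaction and 2 to 3 for Batf3KO. It was 0 to 2 for Cre (2 without replicate 1), 0 to 4 for the difference between ages, 1 for Cre minus IRF8KO, 0 to 1 for IRF8KO minus Batf3KO and 4 to 7 for WT against WT. With all libraries, the shares of all genes called were, in the same order, 7.39, 28.3, 1.99, 27.8, 0.164, 0.438 and 3.83%. For the remaining comparisons they were 0, 24, 7.04, 3.22 and 42.8%. Without Cre replicate 1 the share was 6.24%. Shares in the other left-out fits are not given, so these ranges were not compared with them.

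Correlations between the deviations of same-numbered libraries were -0.169 to 0.172 over the pairs of groups, and in no pair of groups was every one above 0.1. With so few libraries per group, these values cannot show whether same-numbered libraries shared more than a number. With the replicate block, 216 genes were called in Batf3KO, 1 of them a member (Klf2). Cebpa and Runx1 had adjusted p of 0.0626 and 0.121 there. The call on Maf in IRF8KO at 9 months was lost with the block (-2.03, adjusted p 0.0664). DESeq2 gave no adjusted p for Sall1 at 9 months.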
